A study of Mus musculus with 3 samples.

Results

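The genes described here take up long-chain fatty acids, activate them to acyl-CoA, carry them into mitochondria and oxidise them. They are 39 named genes out of the 46316 gene symbols in the tables, taken by symbol. Of the 39, 37 passed a filter of a mean level of at least 1 CPM, that is, counts relative to library size, and Fabp4 and Acot1 did not. RNA was sequenced from C2C12, a line of mouse myoblasts that can be grown without limit and that fuse to multinucleate myotubes on differentiation. There were 3 libraries, 1 per group, all from cells 4 days into myogenic differentiation. The rescue library came from cells labelled as a Drp1 knockout that transiently expressed FLAG-tagged Drp1, the KO library from cells labelled as a Drp1 knockout, and the WT library from wild-type cells. Drp1, encoded by Dnm1l, is the GTPase that constricts and divides mitochondria. The sources used here do not say whether the KO line was 1 clone or what share of the rescue cells took up the FLAG-Drp1 construct.

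In muscle, lipoprotein lipase frees fatty acids from circulating triglyceride, membrane proteins such as CD36 and the fatty acid transport proteins bring them into the cell, and small binding proteins carry them through the cytosol. Acyl-CoA synthetases activate them, the CPT1 enzymes of the outer mitochondrial membrane and CPT2 of the inner membrane pass the acyl group through a carnitine ester, and the matrix enzymes of beta-oxidation then shorten the chain. The electrons go through the electron transfer flavoproteins to ubiquinone, and thioesterases can return acyl-CoA to free fatty acid and CoA.

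Depth was alike, at 13925296 gene counts in rescue, 13790417 in KO and 13894114 in WT. As each group is a single library, differences have no replicate check, no p-value was computed, and each statement describes these libraries. Ratios are log2 ratios of scaled counts with a 95% counting interval, which covers counting error only. Dnm1l had 1481 counts in rescue, 1284 in KO and 1823 in WT, so its transcript was still counted in the library labelled KO. The comparisons share libraries: KO against WT and rescue against WT share WT, and KO against WT and rescue against KO share KO. Across all genes the ratios moved with transcript length. The shortest decile of transcripts had a median log2 ratio of -0.21 and the longest one of 0.19 between KO and WT, and the shortest 0.23 and the longest -0.21 between rescue and KO.

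Promoter sequence is shown for Acot2, Fabp3 and Cd36, which with Lpl were the genes past 2-fold, for Acot1, whose transcript resembles that of Acot2, and for a pair of genes that start next to each other. Each is the 250 bases before a RefSeq transcription start on GRCm38.p6, except the last, which is the 272 bases between the divergent starts of Hadha and Hadhb. Acot2 and its neighbour Acot1 lie on the plus strand at chr12:83987611-83987860 and chr12:84009252-84009501, Fabp3 on the plus strand at chr4:130308488-130308737, and Cd36 on the minus strand at chr5:17835897-17836146. The stretch between Hadha and Hadhb is given on the plus strand at chr5:30154981-30155252. Capitals mark a match to 1 of 4 short motifs, searched on both strands.
Acot2: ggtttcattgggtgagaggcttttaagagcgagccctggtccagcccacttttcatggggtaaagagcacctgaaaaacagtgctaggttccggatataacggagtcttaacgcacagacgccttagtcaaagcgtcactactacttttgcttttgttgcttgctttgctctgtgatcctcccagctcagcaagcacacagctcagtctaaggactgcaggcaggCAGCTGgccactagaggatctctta
Acot1: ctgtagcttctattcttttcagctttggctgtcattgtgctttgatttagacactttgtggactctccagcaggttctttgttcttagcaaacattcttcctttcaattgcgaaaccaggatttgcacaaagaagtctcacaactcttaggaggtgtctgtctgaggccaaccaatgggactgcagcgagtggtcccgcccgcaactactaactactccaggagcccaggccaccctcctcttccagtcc
Fabp3: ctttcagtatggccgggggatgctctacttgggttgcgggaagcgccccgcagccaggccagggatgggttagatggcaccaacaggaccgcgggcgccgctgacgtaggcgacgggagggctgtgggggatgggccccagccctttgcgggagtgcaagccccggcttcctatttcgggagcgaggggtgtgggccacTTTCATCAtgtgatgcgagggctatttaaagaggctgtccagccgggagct
Cd36: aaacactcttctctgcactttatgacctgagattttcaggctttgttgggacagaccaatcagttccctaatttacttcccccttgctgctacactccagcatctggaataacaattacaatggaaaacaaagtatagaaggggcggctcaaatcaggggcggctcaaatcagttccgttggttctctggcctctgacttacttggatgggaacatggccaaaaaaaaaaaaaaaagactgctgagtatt
Hadha-Hadhb: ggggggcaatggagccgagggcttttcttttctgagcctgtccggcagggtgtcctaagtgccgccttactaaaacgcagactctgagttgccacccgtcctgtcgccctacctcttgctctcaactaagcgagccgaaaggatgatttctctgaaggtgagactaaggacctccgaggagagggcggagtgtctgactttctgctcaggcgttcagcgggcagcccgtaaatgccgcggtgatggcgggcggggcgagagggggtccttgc

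The motifs were the direct repeat bound by PPAR and RXR pairs, which is AGGTCA repeated after 1 spacer base, TNAAGGTCA, the extended half-site of the oestrogen-related receptors, CAGCTG, an E-box of the kind bound by myogenic factors, and TGATGNAA, the core of ATF4 and C/EBP elements. No motif overlapped another in the printed sequences. RefSeq promoters were found for 30 of the 39 genes, 35 promoters in all. The E-box CAGCTG was in 8 of these 35 (22.9%) and in 13.0% of all 32851 mouse promoters in the RefSeq set, and Acot2 holds it 25 to 20 bases before its start. TGATGNAA was in 2 of the 35 (5.71%) and in 3.45% of all promoters, and Fabp3 holds it on the minus strand 51 to 44 bases before its start. The oestrogen-related receptor half-site was in 1 promoter of the 35, that of Acsl6, against 1.14% of all promoters. The PPAR repeat was in 0 of the 35 and in 0.0335% of all promoters. These matches describe letters in a short window and say nothing of binding. The Acot1 and Acot2 promoters were 59.0% identical over 217 aligned bases with a longest shared run of 9 bases, whereas their transcripts were 94.3% identical over 1330 aligned bases with a shared run of 273 bases. The sources used here do not say how reads that match several genes were handled, so the counts of Acot1 and Acot2 cannot be fully told apart.

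The KO library differed from WT by 2-fold in a few genes of the pathway. Acot2, a mitochondrial thioesterase, and Lpl, lipoprotein lipase, rose at least 2-fold, and Fabp3, the heart and muscle fatty acid binding protein, fell at least 2-fold. That is 2 of 37 genes higher and 1 lower, where 5.35% of all 13381 genes kept were 2-fold higher and 4.07% were 2-fold lower. At 1.5-fold, 5 of 37 genes differed, against 22.6% of all genes, with Cpt1a and Cpt1c added on the higher side, and the other 32 lay within 1.5-fold. The median log2 ratio was -0.12, with 15 genes above 0 and 22 below, where 50.1% of all genes were above 0 and their median was 0.000511. The counting interval lay wholly below 0 for 17 of the 37 genes and wholly above 0 for 8, against 29.3% and 29.0% of all genes. The median size of a log2 ratio, taken without its sign, was 0.28 in these genes and 0.28 over all genes.

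In rescue against KO, Fabp3 and Cd36, the scavenger receptor that takes up long-chain fatty acids, rose at least 2-fold. That is 2 of 37 genes higher and 0 lower, where 1.3% of all genes were 2-fold higher and 0.575% were 2-fold lower. No further gene passed 1.5-fold, against 6.58% of all genes past it. The ratios were mostly small and positive, with 29 genes above 0 and 8 below and a median of 0.10, where 50.3% of all genes were above 0 and their median was 0.00286. The interval lay wholly above 0 for 14 genes and wholly below 0 for 4, against 17.7% of all genes either way. With the transcript length trend removed the median was 0.05. In rescue against WT, Acot2, Lpl and Cd36 rose, so 3 of 37 genes were 2-fold higher and 0 lower, where 4.59% of all genes were 2-fold higher and 3.06% lower. The median there was 0.07, against 0.00988 for all genes, with 24 genes above 0 and 13 below, and 51.0% of all genes above 0. At 1.5-fold 5 of 37 genes differed, against 18.4% of all genes, with Cpt1c added on the higher side and Acsl4 on the lower. The interval lay wholly above 0 for 10 genes and wholly below 0 for 9, against 26.9% and 25.4% of all genes.

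**Figure D1:**
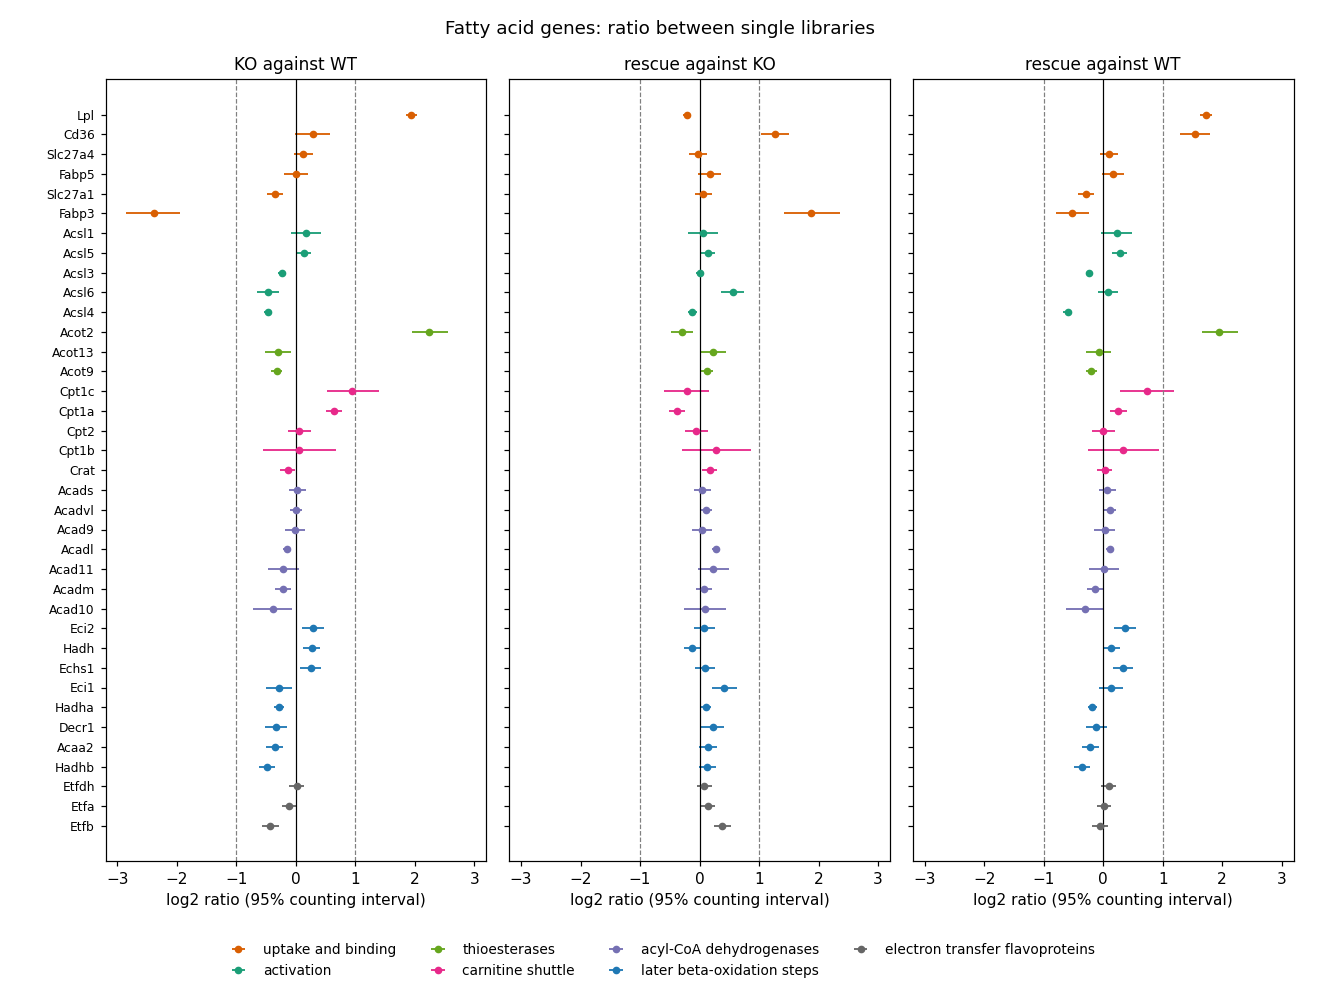
Log2 ratio of each of the 37 genes kept (x axis) with its 95% counting interval, in KO against WT, rescue against KO and rescue against WT, coloured by role; dashed lines mark a 2-fold ratio. Acot2 and Lpl lie to the right of the 2-fold line when KO or rescue is set against WT, Fabp3 lies at -2.39 for KO against WT and 1.86 for rescue against KO, and the beta-oxidation genes lie close to 0.

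**Figure D2:**
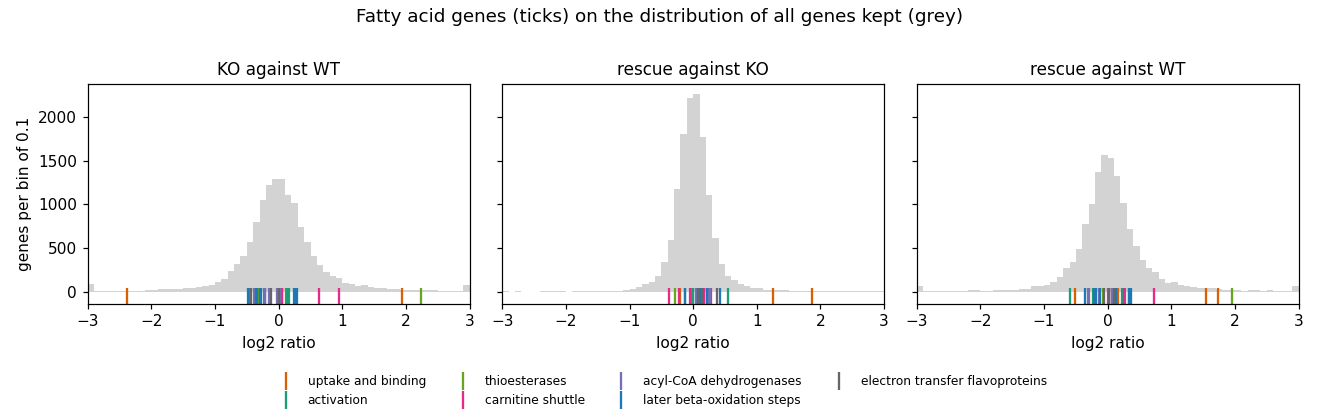
Number of genes per 0.1 of log2 ratio for all 13381 genes kept (grey bars; values beyond the axis are in the end bins) with the 37 fatty acid genes as coloured ticks below, in the 3 comparisons. Most ticks sit under the central peak, with 32 of 37 within 1.5-fold in KO against WT and 35 of 37 in rescue against KO.

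Among the genes of uptake and binding, Lpl had the largest count. Lpl, whose product hydrolyses triglyceride of lipoproteins at the cell surface, had 3623 counts in rescue, 4195 in KO and 1113 in WT. Both knockout-derived libraries were far above WT and close to each other. KO was 3.83-fold above WT (log2 ratio 1.94, interval 1.84 to 2.04), rescue was 3.32-fold above WT (1.73, interval 1.63 to 1.83) and rescue was 1.16-fold below KO (-0.21, interval -0.27 to -0.14). Per length, Lpl was at 65.0 RPKM (reads per kilobase of transcript and library size) in rescue, 75.1 in KO and 19.6 in WT. In bulk RNA a change in the share of cells of a type and a change in RNA per cell cannot be told apart.

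Fabp3 moved the other way between WT and KO. It had 183 counts in rescue, 50 in KO and 268 in WT, so KO was the low library and rescue lay nearer to WT. KO was 5.22-fold below WT (-2.39, interval -2.86 to -1.96). Rescue was 3.64-fold above KO (1.86, interval 1.42 to 2.36) and 1.43-fold below WT (-0.52, interval -0.80 to -0.25). Its transcript is 680 bases long, among the short ones that were lower in KO as a class, and with the length trend removed the ratios were -2.24 for KO against WT and 1.62 for rescue against KO. Fabp5, the epidermal-type binding protein, showed no such pattern, with 474 counts in rescue, 423 in KO and 431 in WT. As a share of the summed RPKM of Fabp3, Fabp4 and Fabp5, Fabp3 made up 34.9% in rescue, 14.0% in KO and 46.6% in WT. Fabp4, the adipocyte binding protein, had 3 counts in rescue, 5 in KO and 0 in WT, too few for a ratio, and the counting interval of its level in WT reaches 0.263 CPM.

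Cd36 was high in rescue. It had 520 counts in rescue, 217 in KO and 182 in WT. Rescue was 2.40-fold above KO (1.26, interval 1.03 to 1.499) and 2.91-fold above WT (1.54, interval 1.30 to 1.79), while KO against WT had a ratio of 0.28 with an interval of -0.01 to 0.57. All 12 of its transcript rows had counts within 5% of the highest row. The fatty acid transport proteins differed less. Slc27a1, FATP1 of muscle and fat, had 840 counts in rescue, 806 in KO and 1047 in WT, with a ratio of -0.35 (interval -0.49 to -0.22) in KO against WT. Slc27a4, FATP4, had 671 counts in rescue, 684 in KO and 640 in WT, and its interval included 0 in all 3 comparisons.

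**Figure D3:**
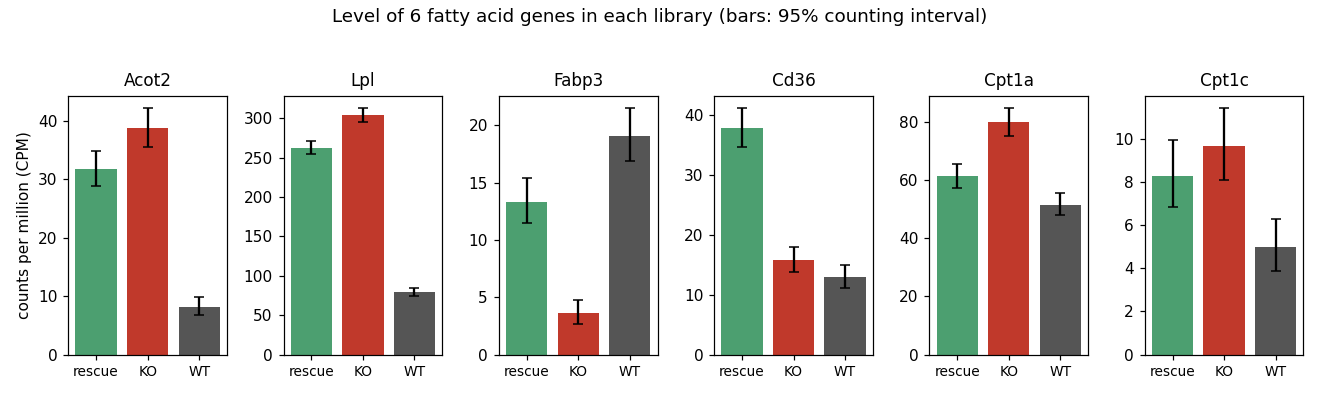
Level of 6 genes in CPM (y axis, from 0) in the rescue, KO and WT libraries; bars are single libraries and whiskers are 95% counting intervals. Acot2 and Lpl are low in WT, Fabp3 is low in KO, Cd36 is high in rescue, and Cpt1a and Cpt1c are highest in KO.

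The 5 long-chain acyl-CoA synthetases, which activate fatty acids at different membranes, all stayed under 2-fold. Their median log2 ratio was -0.23 in KO against WT, 0.06 in rescue against KO and 0.08 in rescue against WT. Acsl4, the synthetase with a preference for arachidonic acid, had 2590 counts in rescue, 2828 in KO and 3998 in WT. WT was the high library: the ratio was -0.47 (interval -0.54 to -0.40) for KO against WT and -0.60 (interval -0.67 to -0.53) for rescue against WT. Acsl3, found on the endoplasmic reticulum and lipid droplets, had 3706 counts in rescue, 3708 in KO and 4439 in WT, and the ratio in rescue against KO was 0.00. Acsl6, best known from brain, had 573 counts in rescue, 391 in KO and 552 in WT, so that KO stood below both others. Its ratio was -0.47 (interval -0.66 to -0.28) for KO against WT and 0.55 (interval 0.37 to 0.74) for rescue against KO. Acsl5 had 1205 counts in rescue, 1092 in KO and 1014 in WT. Acsl1, the main synthetase of adult muscle and fat, was the lowest of the 5 per length in rescue and WT, at 5.06 RPKM in rescue, 4.86 in KO and 4.32 in WT, and its interval included 0 in every comparison. Acsl3 held 48.1% of the summed RPKM of the 5 genes in rescue, 48.7% in KO and 48.5% in WT, while Acsl4 held 23.9% in rescue, 26.5% in KO and 31.1% in WT.

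Among the thioesterases only Acot2 passed 2-fold, both for KO and for rescue when set against WT. Acot2, which hydrolyses long-chain acyl-CoA in the mitochondrial matrix, had 437 counts in rescue, 535 in KO and 115 in WT. As with Lpl, both knockout-derived libraries were high. KO was 4.72-fold above WT (2.24, interval 1.95 to 2.55), rescue was 3.86-fold above WT (1.95, interval 1.65 to 2.26), and rescue against KO was -0.29 (interval -0.47 to -0.10). Acot1, its cytosolic neighbour, had 5 counts in rescue, 4 in KO and 2 in WT. The other genes of the cluster had few reads as well, with Acot3 at 2 counts in rescue, 0 in KO and 1 in WT. Acot4 and Acot5 had 0 in all 3. Acot6 had 1 count in rescue, 4 in KO and 18 in WT and did not pass the filter. Its ratio in KO against WT was -2.01 (interval -4.17 to -0.54), the opposite direction to Acot2. Acot3, Acot5 and Acot6 are named here after their values were seen. Acot9, a mitochondrial enzyme, had 1889 counts in rescue, 1738 in KO and 2214 in WT, and Acot13, a small mitochondrial thioesterase, had 374 in rescue, 321 in KO and 402 in WT. Both ratios in KO against WT were negative, at -0.32 (interval -0.42 to -0.23) for Acot9 and -0.30 (interval -0.52 to -0.08) for Acot13. The Acot13 transcript is 686 bases long, and its ratio was -0.15 with the length trend removed. Of the summed RPKM of the thioesterases, Acot2 made up 11.1% in rescue, 14.5% in KO and 2.81% in WT, and Acot9 58.3% in rescue, 57.4% in KO and 65.7% in WT.

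In the carnitine shuttle the CPT1 genes differed between KO and WT by under 2-fold. Cpt1a, the liver-type isoform of the outer-membrane transferase, had 845 counts in rescue, 1103 in KO and 724 in WT. KO was the highest library, 1.55-fold above WT (0.63, interval 0.50 to 0.77), and rescue lay 1.30-fold below KO (-0.38, interval -0.51 to -0.25) and 1.19-fold above WT (0.25, interval 0.11 to 0.40). One short Cpt1a row held 38.5% of the counts of the highest row, while 6 of its 7 rows lay within 5% of it. Cpt1c, the brain-type isoform, had 114 counts in rescue, 133 in KO and 70 in WT, with a ratio of 0.95 (interval 0.52 to 1.39) for KO against WT and 0.73 (interval 0.29 to 1.18) for rescue against WT. Cpt1b, the isoform of adult muscle, was scarce, with 57 counts in rescue, 47 in KO and 46 in WT, and no difference was detectable at this depth. Per length, Cpt1a made up 74.9% of the summed RPKM of the 3 isoforms in rescue, 78.7% in KO and 79.1% in WT, and Cpt1b 8.34% in rescue, 5.54% in KO and 8.29% in WT.

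The other shuttle enzymes were close between libraries. Cpt2, which reforms acyl-CoA in the matrix, had 451 counts in rescue, 469 in KO and 459 in WT, and all its intervals included 0. Crat, the carnitine acetyltransferase that buffers acetyl-CoA, had 1022 counts in rescue, 912 in KO and 1023 in WT, a ratio of -0.14 (interval -0.27 to -0.01) for KO against WT and 0.17 (interval 0.04 to 0.30) for rescue against KO. Slc25a20, the carnitine-acylcarnitine carrier, is not among the 39 genes and had 513 counts in rescue, 419 in KO and 485 in WT.

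The 18 genes of mitochondrial beta-oxidation and its electron transfer stayed within 1.5-fold in KO against WT, as did 77.4% of all genes. Their log2 ratios ran there from -0.48 to 0.29, with a median of -0.19, 5 genes above 0 and 13 below. In rescue against KO, 17 of the 18 were above 0 and Hadh was below, with a range of -0.13 to 0.42 and a median of 0.11, where 50.3% of all genes were above 0. That count depends on the scaling: 15 of the 18 were above 0 with the length trend removed and 10 of the 18 with the ratio of deposited TPM. With the deposited TPM the median of all genes in that comparison was itself -0.09. The 50.3% holds for the counts as scaled here, not for the TPM. In rescue against WT the median was 0.02, with 11 genes above 0 and 7 below. The intervals of 9 genes lay wholly below 0 and of 3 wholly above 0 in KO against WT, against 29.3% and 29.0% of all genes. For rescue against KO, 7 lay wholly above 0 and 0 wholly below, against 17.7% of all genes either way. Together the 18 genes had 1334 CPM in rescue, 1205 in KO and 1333 in WT. The median length of these transcripts, 2125 bases, was below the 3160 of all genes kept. With the length trend removed the median ratio was -0.11 for KO against WT and 0.07 for rescue against KO. These lengths are those of the rows used. Rows with counts within 5% of the highest ran from 2028 to 5783 bases for Hadhb, 1416 to 3100 for Eci2 and 1464 to 9211 for Etfa. The effect of that choice of row on the length trend was not tested.

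Acadl, the long-chain acyl-CoA dehydrogenase, was the most abundant of the 39 genes per length, at 145.7 RPKM in rescue, 120.7 in KO and 134.5 in WT. It had 3909 counts in rescue, 3245 in KO and 3680 in WT, and KO was the low library, with a ratio of -0.16 (interval -0.22 to -0.09) against WT and 0.27 (interval 0.20 to 0.34) for rescue against KO. With the length trend removed the Acadl ratio was -0.0756 for KO against WT and 0.19 for rescue against KO, both outside these intervals. Acadvl, the very-long-chain enzyme of the inner membrane, had 1537 counts in rescue, 1428 in KO and 1454 in WT. Acadm, the medium-chain enzyme, had 935 in rescue, 887 in KO and 1049 in WT, a ratio of -0.22 (interval -0.35 to -0.09) in KO against WT. Acads, the short-chain enzyme, was nearly equal, with 837 counts in rescue, 811 in KO and 813 in WT. Acad9, also an assembly factor of complex I, was likewise nearly equal, at 557 counts in rescue, 542 in KO and 559 in WT. Acad10 and Acad11, less studied members of the family, were the lowest 2 of the 7 dehydrogenases per length. Acad10 had 143 counts in rescue, 135 in KO and 180 in WT, and Acad11 had 264 in rescue, 225 in KO and 266 in WT. In rescue against KO the 7 dehydrogenases had ratios above 0, where 50.3% of all genes did, but 6 of 7 with the length trend removed and 3 of 7 with the ratio of deposited TPM. The median of all genes was -0.09 with the deposited TPM, to which the 50.3% does not apply. The intervals of 2, Acadl and Acadvl, lay wholly above 0, against 17.7% of all genes.

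The later steps of the cycle divided into genes that were lower and genes that were higher in KO than in WT. Hadha and Hadhb, the alpha and beta subunits of the trifunctional protein, both had negative ratios. Hadha had 2565 counts in rescue, 2393 in KO and 2971 in WT (KO against WT -0.29, interval -0.37 to -0.21). Hadhb had 822 in rescue, 752 in KO and 1070 in WT (-0.48, interval -0.62 to -0.35). The starts of both genes are divergent, on opposite strands with 272 bases between them, as printed above. Transcripts from these starts run away from each other and do not share the stretch between them. The strand setting is not stated, and whether it affected the counts of Hadha or Hadhb was not tested. In rescue against KO the ratios were 0.10 (interval 0.02 to 0.18) for Hadha and 0.13 (interval -0.01 to 0.28) for Hadhb, and in rescue against WT they were -0.18 for Hadha and -0.35 for Hadhb. The level of Hadhb per length depends on its row, at 9.42 RPKM in KO on the row used and 26.8 on its shortest row.

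Acaa2, the thiolase, had 739 counts in rescue, 670 in KO and 875 in WT, a ratio of -0.36 (interval -0.51 to -0.21) in KO against WT. Decr1, the dienoyl-CoA reductase for unsaturated chains, had 479 in rescue, 411 in KO and 529 in WT, at -0.34 (interval -0.53 to -0.15). Eci1, an enoyl-CoA isomerase, had 441 in rescue, 331 in KO and 410 in WT, so KO stood below both other libraries, at -0.28 (interval -0.50 to -0.07) against WT and 0.42 (interval 0.21 to 0.63) for rescue against KO. With the length trend removed these were -0.14 and 0.24. The other isomerase, Eci2, went the other way, with 564 counts in rescue, 534 in KO and 445 in WT and a ratio of 0.29 (interval 0.10 to 0.47) in KO against WT. Echs1, the short-chain enoyl-CoA hydratase, had 641 in rescue, 602 in KO and 517 in WT, at 0.24 (interval 0.07 to 0.42). Hadh, the short-chain hydroxyacyl-CoA dehydrogenase, had 818 in rescue, 898 in KO and 761 in WT, at 0.26 (interval 0.12 to 0.41). Eci2 and Echs1 were thus lowest in WT, with ratios in rescue against WT of 0.37 for Eci2 and 0.34 for Echs1.

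Of the flavoproteins, Etfb had the ratio farthest from 0 when KO was set against WT and when rescue was set against KO. Etfb, the beta subunit, had 888 counts in rescue, 684 in KO and 940 in WT, so KO stood below both others, at -0.43 (interval -0.58 to -0.29) against WT and 0.38 (interval 0.23 to 0.53) for rescue against KO. Its transcript is 903 bases long, and with the length trend removed these ratios were -0.29 and 0.18. Etfa, the alpha subunit, had 1207 counts in rescue, 1103 in KO and 1218 in WT, with a ratio of -0.12 in KO against WT and an interval that includes 0. Etfdh, the ubiquinone oxidoreductase, had 1029 counts in rescue, 974 in KO and 984 in WT, and its interval included 0 in all 3 comparisons.

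**Figure D4:**
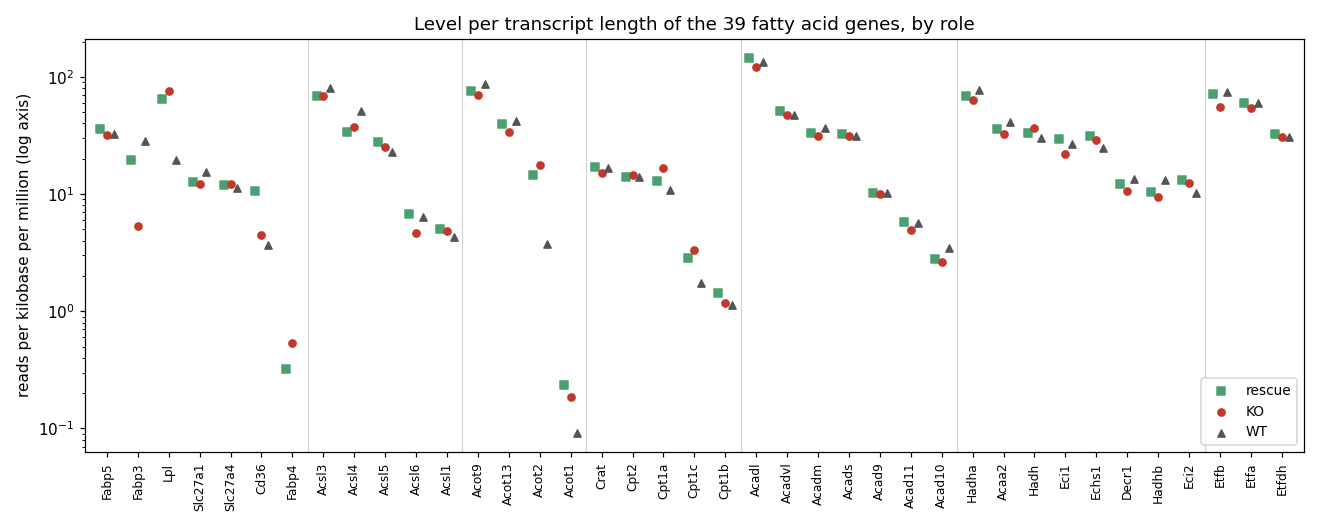
Level of the 39 genes in RPKM (log axis) in the rescue, KO and WT libraries, grouped by role and ordered within a role. Each point is 1 library; Fabp4 in WT is at 0 and cannot be drawn, Acadl is the highest gene at 120.7 to 145.7 RPKM, and Fabp4 and Acot1 are the lowest.

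**Figure D5:**
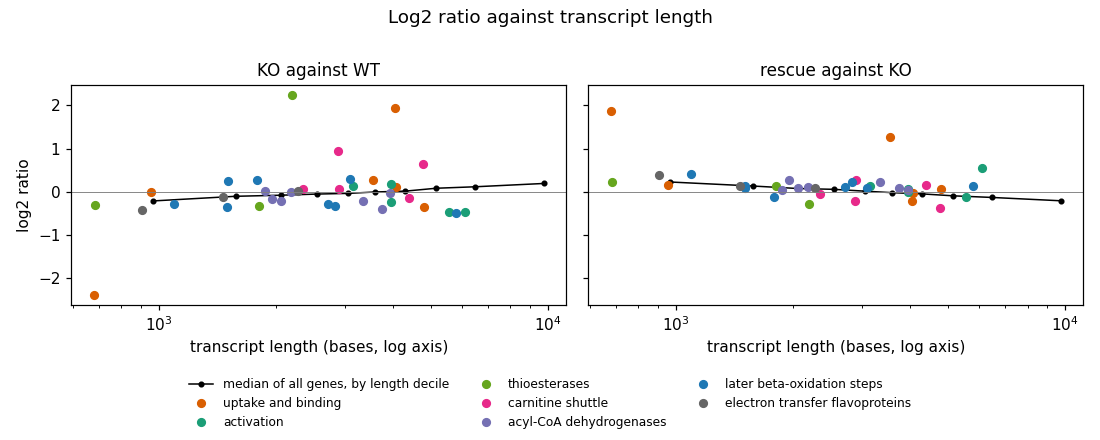
Log2 ratio of the 37 genes kept (coloured points) against transcript length (log axis), with the median of all genes by length decile (black line), in KO against WT and rescue against KO. The black line runs from -0.21 to 0.19 in KO against WT and from 0.23 to -0.21 in rescue against KO, and Acot2, Lpl, Fabp3 and Cd36 lie far from it where they passed 2-fold.

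Genes that control the pathway were described from lists that stand outside the 39. Of 16 PPAR and oestrogen-related receptor regulators, 12 passed the filter, and 1 was 2-fold higher and 0 lower in KO against WT. For this and the lists below, 5.35% of all genes were 2-fold higher and 4.07% lower in KO against WT. The shares were 1.3% higher and 0.575% lower in rescue against KO, and 4.59% higher and 3.06% lower in rescue against WT. Esrrg, the gamma receptor of oxidative muscle, had 37 counts in rescue, 51 in KO and 5 in WT. KO was 9.53-fold above WT (3.25, interval 2.06 to 5.06). Esrrg was at 2.69 CPM in rescue, 3.70 in KO and 0.356 in WT, so it passed the filter through rescue and KO. Ppargc1a, the PGC-1 alpha coactivator, had 33 counts in rescue, 45 in KO and 80 in WT, with a ratio of -0.80 (interval -1.37 to -0.26) for KO against WT and -1.24 (interval -1.88 to -0.65) for rescue against WT. The nuclear receptors at higher counts were closer, with Ppard at 564 in rescue, 648 in KO and 550 in WT, Pparg at 164 in rescue, 147 in KO and 159 in WT, and Esrra at 821 in rescue, 745 in KO and 686 in WT. Ppara had 0 counts in rescue, 1 in KO and 3 in WT, so its level could not be compared. In rescue against KO, 0 of the 12 regulators passed 2-fold.

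Of 12 PPAR target genes outside the 39, 8 passed the filter, and in KO against WT 1 was 2-fold higher and 2 were lower. Fgf21, a hormone induced by fasting and by mitochondrial stress, had 994 counts in rescue, 815 in KO and 151 in WT (KO against WT 2.45, interval 2.21 to 2.72). Ucp2, a mitochondrial carrier, had 197 in rescue, 192 in KO and 516 in WT (-1.40, interval -1.65 to -1.16), and Angptl4, a secreted inhibitor of lipoprotein lipase, had 222 in rescue, 195 in KO and 402 in WT (-1.02, interval -1.27 to -0.77). Angptl4 was thus lower in the libraries in which Lpl was high. In rescue against KO 1 target rose and 0 fell: Ucp3, the uncoupling protein of muscle, had 91 counts in rescue, 37 in KO and 38 in WT (rescue against KO 1.29, interval 0.74 to 1.89), rescue being the high library, as for Cd36. Gpihbp1, which anchors lipoprotein lipase on capillaries, had 0 counts in all 3 libraries, and of 8 lipase partners 3 passed the filter, of which Angptl4 alone passed 2-fold in KO against WT.

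Carnitine supply and malonyl-CoA, the inhibitor of CPT1, were covered by short lists. Of 7 genes of carnitine uptake, synthesis and exchange, 6 passed the filter and 1 was 2-fold higher in KO against WT: Slc22a4, a plasma membrane transporter, had 155 counts in rescue, 192 in KO and 61 in WT (1.67, interval 1.26 to 2.12). Slc22a5, another transporter of this list, had 220 counts in rescue, 195 in KO and 199 in WT. Its ratio in KO against WT was -0.004 (interval -0.30 to 0.29), and it is named here after its values were seen. Of 6 genes of malonyl-CoA control all passed, with 1 higher and 1 lower in KO against WT and 0 past 2-fold in rescue against KO. Acacb, the mitochondrial acetyl-CoA carboxylase, had 16 counts in rescue, 26 in KO and 5 in WT. Its log2 ratio for KO against WT was 2.29, with a wide interval of 0.9999 to 4.14. Acacb was at 1.16 CPM in rescue, 1.88 in KO and 0.356 in WT. It passed the filter only through rescue and KO, so its count as the 1 higher gene is partly set by the filter. Prkaa2, the AMPK alpha 2 subunit of muscle, had 33 in rescue, 25 in KO and 103 in WT, KO being 3.99-fold below WT. Acaca, the cytosolic carboxylase, had 1153 counts in rescue, 1381 in KO and 1304 in WT, and Mlycd, malonyl-CoA decarboxylase, had 220 in rescue, 205 in KO and 198 in WT.

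Marker lists of cell types are given beside these genes, and their part in the results was not tested. All 12 myotube markers passed the filter, and the cells expressed Myh3, the embryonic myosin, at 77629 counts in rescue, 62250 in KO and 50576 in WT. Of the 12, 0 were 2-fold higher and 4 were lower in KO against WT (Myh8, Ckm, Actn2 and Mb), and 4 were higher and 0 lower in rescue against KO. Mb, myoglobin, had 1602 counts in rescue, 679 in KO and 2368 in WT, the same order of libraries as Fabp3. The summed level of the 12 was 20860 CPM in rescue, 17061 in KO and 16524 in WT. Genes at high levels weigh most in this sum, with Myh3 alone at 5637 CPM in rescue, 4512 in KO and 3602 in WT. The median log2 ratio of the 12 in KO against WT was -0.23, with 5 above 0 and 7 below, where 50.1% of all genes were above 0. Of 8 myoblast and fibroblast markers, 6 passed the filter, and 3 were higher and 1 lower in KO against WT. Their sum was 4456 CPM in rescue, 5572 in KO and 2956 in WT, most of it from Col1a1 and Col3a1. Without these 2 collagen genes the sum was 351 CPM in rescue, 398 in KO and 502 in WT. Dcn, the proteoglycan decorin, had 1792 counts in rescue, 1787 in KO and 5177 in WT. At 369 CPM it made up most of that sum in WT. Pdgfrb and Pdgfra went the other way, past 2-fold higher in KO against WT. Pdgfrb had 2274 counts in rescue, 2837 in KO and 803 in WT, and Pdgfra 191 in rescue, 240 in KO and 112 in WT. Myf5, named here after its values were seen, had 570 in rescue, 617 in KO and 949 in WT. Of 11 adipocyte markers, which include Lpl, Pparg and Fabp4, 4 passed the filter, and their sum was 378 CPM in rescue, 418 in KO and 190 in WT. Without Lpl the sum was 115 CPM in rescue, 114 in KO and 111 in WT. Cebpa, an adipogenic factor, had 101 counts in rescue, 117 in KO and 29 in WT, but Adipoq, Cfd, Lep and Cidec had 0 counts in all 3 libraries. The 8 endothelial markers summed to 28 counts in rescue, 38 in KO and 31 in WT, with 4 at 0 in all. Only Vwf passed the filter, with 17 counts in rescue, 30 in KO and 13 in WT. KO was 2.30-fold above WT for Vwf (log2 interval 0.25 to 2.29). The 7 macrophage markers summed to 152 in rescue, 174 in KO and 132 in WT, with Ptprc and Adgre1 at 0. Of the 7, 2 passed the filter and 1 was 2-fold higher in KO against WT. That was Cd68, with 42 counts in rescue, 55 in KO and 22 in WT (1.33, interval 0.61 to 2.13). Cd14 had 109 in rescue, 113 in KO and 103 in WT, most of the sum. Vwf and Cd14 are named here after their values were seen. The 6 cell cycle genes had 0 members past 2-fold and medians of -0.50 for KO against WT and 0.07 for rescue against KO.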

How the data were processed

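RNA of 3 libraries, extracted with TRIzol per the labels' protocols, was sequenced. The authors used the mouse build GRCm39 and cutadapt 1.9.1, HISAT2 2.2.1 as well as featureCounts 2.0.0, per the submitters' processing notes. The sources used here do not give their strand and multimapping settings. The tables deposited by the authors hold for every transcript row a raw count, RPKM and TPM, per the file headers, over 139023 rows. The deposited RPKM was not used, and the deposited TPM served only as an alternative.

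A gene's count was its row with the highest sum over the libraries. Many of the 39 genes, among them Lpl, Acot2 and Fabp3, had 1 row only, so no choice of row arose. For most genes with several rows the other rows had nearly the same counts. The lowest row held 38.5% of the highest for Cpt1a, however, 78.2% for Cpt1c and 83.8% for Acad10. Scaling used TMM factors of edgeR 4.0.16 in R 4.3.3 (0.989 for rescue, 1.00 for KO and 1.01 for WT). The RPKM values printed were computed here from those scaled counts and the row's length. Log2 ratios had 0.5 added to each count and exact conditional 95% counting intervals, which cover counting error only, since reads lacking molecular identifiers do not stand for separate molecules. Genes were kept at a mean CPM of at least 1 (13381 genes), and a ratio of 2-fold or more counted as higher or lower. Lowess (span 0.5, statsmodels 0.14.6) gave the transcript length trend. The ratio step was tested on simulated counts.

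The 39 genes and all lists were chosen with earlier results of these data known. Genes named outside the 39 are the receptor regulators, Dnm1l, Slc25a20, Acaca, Acacb, Mlycd, Plin2 and Acot4, and listed genes with 50 or more counts in the higher library and a 2-fold ratio, unless stated. The alternatives were 7: 5 added to each count, no filter, the sum over a gene's rows, total counts, DESeq2 1.42.0 size factors, the deposited TPM and the length trend removed. Promoters came from RefSeq on GRCm38.p6, and transcripts compared from GENCODE M21.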

Additional observations from a re-analysis of the deposited data

How the results depend on the processing

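No paired analysis was possible because there was 1 library per group. Under the 7 alternatives no 2-fold call of a gene among the 37 kept changed, and no ratio of a called gene reversed. Dropping the filter leaves each ratio as it was, so that alternative could not change a call among the 37. Without the filter on low counts, 5 genes were at least 2-fold higher in rescue against WT, against 3 with it, since Fabp4 and Acot1, with at most 5 counts a library, then enter. The median log2 ratio in rescue against KO was 0.0065 with the ratio of deposited TPM, against 0.103 in the counts, and the median of all genes in that comparison moved to -0.09 with it. The medians ranged from -0.1826 to -0.0191 in KO against WT, from 0.0065 to 0.1341 in rescue against KO and from 0.0152 to 0.0821 in rescue against WT. Of the values of single genes under the alternatives, 761 lay within the counting interval of the value reported and 16 did not. The 761 include the values without the filter, which equal the reported values by construction. For Etfb in rescue against KO the value was 0.38, and 0.18 with the length trend removed. Depth limited the comparison of Cpt1b, Fabp4, Acot1, Ppara, Esrrg, Acacb, Mgll and Vwf, whose counts were low in at least 1 library. With no replicates the spread between cultures is unknown.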

Other observations

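Neighbouring parts of fatty acid metabolism were measured in the same libraries. Of 17 genes of peroxisomal beta-oxidation, 14 passed the filter and 0 were past 2-fold in any of the 3 comparisons, and the list's medians were -0.01 for KO against WT, 0.05 for rescue against KO and 0.07 for rescue against WT on the log2 scale. The lowest ratio of the list in KO against WT was -0.78, that of Amacr, the racemase of branched chains, which had 858 counts in rescue, 700 in KO and 1227 in WT and is named here after its values were seen. Of 13 other mitochondrial fatty acid enzymes, 12 passed and 1 rose in KO against WT: Acsf2, an acyl-CoA synthetase family member, had 153 counts in rescue, 197 in KO and 76 in WT (1.39, interval 1.01 to 1.80). Of 21 further members of the gene families, 5 passed the filter and 0 of these 5 were past 2-fold in any comparison.

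Of 22 genes of lipid droplets and triglyceride turnover, 15 passed, with 1 higher and 2 lower in KO against WT and 0 past 2-fold in rescue against KO. G0s2, an inhibitor of adipose triglyceride lipase, had 197 counts in rescue, 185 in KO and 64 in WT (1.55, interval 1.14 to 1.99). Plin4, a droplet coat protein, had 80 counts in rescue, 128 in KO and 274 in WT (-1.07, interval -1.39 to -0.76). The second lower gene was Mgll, monoacylglycerol lipase, with 8 counts in rescue, 4 in KO and 44 in WT, named here after its values were seen. Its ratio in KO against WT was -3.28, with a wide interval of -5.37 to -1.98. Mgll was at 0.581 CPM in rescue, 0.290 in KO and 3.13 in WT, so it passed the filter only through WT. Plin2, the general droplet coat protein, had 2338 counts in rescue, 2413 in KO and 3029 in WT (-0.30, interval -0.38 to -0.22).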
